A study of Mus musculus with 2 samples.

Results

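ChIP-Seq of Myb in WT mouse bone marrow depleted of lineage-positive cells (Lin-) gave 25793 peaks, and 1595 of them (6.18%, 95% interval 5.89% to 6.48%) lay at promoters of noncoding genes only. A peak was placed in this set when its summit was within 3 kb of a transcript start of a gene that GENCODE vM21 does not label protein_coding, and more than 3 kb from every start of a transcript of a protein_coding gene. The peaks were then grouped by the gene type of the nearest start. No value of the peaks themselves entered this choice. For comparison, 10584 peaks lay near protein-coding starts only, 2666 near both kinds of start and 10948 beyond 3 kb of every start, here called distal.

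Myb targets of normal progenitors were mapped in the study to read the expression changes that follow p300 loss. There were 2 libraries, the Myb precipitate and a control with normal rabbit IgG, each from Lin- cells of WT genotype at a purity above 80%. Lin- cells are what remains of bone marrow after cells with markers of mature lineages are depleted, so they hold a mixture of stem and progenitor cells. No treatment, age or sex was given in the labels, and the labels do not say how many mice were pooled. A list of peaks carries no expression values, so the labelled cell type could not be checked against its markers. With 1 library of each kind there was no replicate, and no p-value was computed. The 95% intervals below cover counting error over peaks, genes or reads only, and neighboring peaks are not independent.

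Myb is a transcription factor needed for definitive hematopoiesis, and it binds a short sequence with the core AAC. Noncoding genes are of several kinds. Long noncoding RNAs (lincRNA, antisense, processed_transcript and sense_intronic genes in the annotation) are mostly made by RNA polymerase II from promoters like those of coding genes, while small structural RNAs use compact promoters of their own, and most processed pseudogenes are copies inserted without a promoter. Loci with the label TEC are candidate transcripts that still await experimental evidence.

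The sequences of the strongest members show the Myb motif as it was found. Each stretch below reaches 50 bases to either side of a summit on the GRCm38 plus strand, and capitals mark the motif, which is CAACGG or CAACTG or TAACGG or TAACTG on either strand (read on the plus strand as CCGTTG or CAGTTG or CCGTTA or CAGTTA when it lies on the minus strand). The first 6 are all motif-bearing members among the 12 with the highest fold enrichment, except 1 on a chromosome whose sequence is not printed here. Gm42435, Gm15555 and Gm6410 each hold 2 copies, and those of Gm6410 lie side by side. Rnu1a1, Rnu5g and Malat1 are shown as members of the same strength with none.
Gm42435, chr5:3497689-3497789: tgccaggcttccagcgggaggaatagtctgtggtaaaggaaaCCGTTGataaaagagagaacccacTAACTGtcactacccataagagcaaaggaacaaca
Gm25099, chr4:117189752-117189852: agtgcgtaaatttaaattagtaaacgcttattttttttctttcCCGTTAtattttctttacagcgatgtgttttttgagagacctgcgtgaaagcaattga
Gm15555, chr16:76002544-76002644: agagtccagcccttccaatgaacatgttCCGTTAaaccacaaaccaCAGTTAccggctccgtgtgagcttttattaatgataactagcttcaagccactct
Gm18485, chr6:116621433-116621533: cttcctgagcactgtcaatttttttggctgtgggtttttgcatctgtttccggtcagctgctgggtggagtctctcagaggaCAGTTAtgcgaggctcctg
Gm6410, chr8:4678424-4678524: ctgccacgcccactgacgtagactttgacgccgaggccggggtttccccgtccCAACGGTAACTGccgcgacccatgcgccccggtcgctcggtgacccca
AC117816.1, chr19:31950870-31950970: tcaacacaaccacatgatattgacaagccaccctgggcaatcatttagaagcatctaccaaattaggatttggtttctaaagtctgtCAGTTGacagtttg
Rnu1a1, chr11:87423108-87423208: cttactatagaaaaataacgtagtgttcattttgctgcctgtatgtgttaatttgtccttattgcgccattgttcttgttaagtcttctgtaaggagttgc
Rnu5g, chr9:65201671-65201771: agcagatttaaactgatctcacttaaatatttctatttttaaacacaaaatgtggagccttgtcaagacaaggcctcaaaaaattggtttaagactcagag
Malat1, chr19:5802266-5802366: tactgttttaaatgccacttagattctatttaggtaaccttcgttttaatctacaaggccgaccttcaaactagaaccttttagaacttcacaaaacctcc

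A further 3 motif-bearing summits are shown because they lie at well-studied genes. Pvt1 is a long noncoding RNA gene in the neighborhood of Myc, 1810026B05Rik (also called Chaserr) lies beside Chd2, and Rny3 makes a Y RNA.
Pvt1, chr15:62221181-62221281: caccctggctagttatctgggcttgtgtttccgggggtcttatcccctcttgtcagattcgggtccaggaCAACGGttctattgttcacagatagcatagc
1810026B05Rik, chr7:73557190-73557290: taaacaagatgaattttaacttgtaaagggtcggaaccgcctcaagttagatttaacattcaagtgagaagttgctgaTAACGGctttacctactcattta
Rny3, chr6:47781636-47781736: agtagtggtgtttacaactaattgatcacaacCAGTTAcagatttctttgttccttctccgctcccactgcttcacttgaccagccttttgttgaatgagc

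Peaks were concentrated at the starts of long noncoding RNA genes and not at those of pseudogenes. The sequenced bases that satisfied the rule covered 164 Mb, or 6.19% of the genome, and held 9.73 members per Mb (9.25 to 10.2), against 48.5 (47.6 to 49.4) for coding-only territory and 4.89 (4.80 to 4.99) for distal sequence. Around long noncoding RNA starts the density was 35.6 per Mb (31.7 to 39.7) within 500 bp and fell to 11.9 from 1 to 3 kb. Around TEC starts it was 17.8 (13.1 to 23.6) within 500 bp and 11.2 in the outer bin. Around small RNA starts it was 16.9 (13.3 to 21.1) and 7.34 in the same bins. Around pseudogene starts it was 3.74 (2.76 to 4.95) and 4.69. Over its whole 3 kb, pseudogene territory held 4.39 peaks per Mb (3.92 to 4.90), an interval that includes the distal density. The authors discarded reads of low mapping quality, and bases where such reads arise were kept in the territory. The part of this in the low density at pseudogenes, which are sequence copies, was not tested. Within 500 bp of coding-only starts the density was 127 per Mb.

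**Figure D1:**
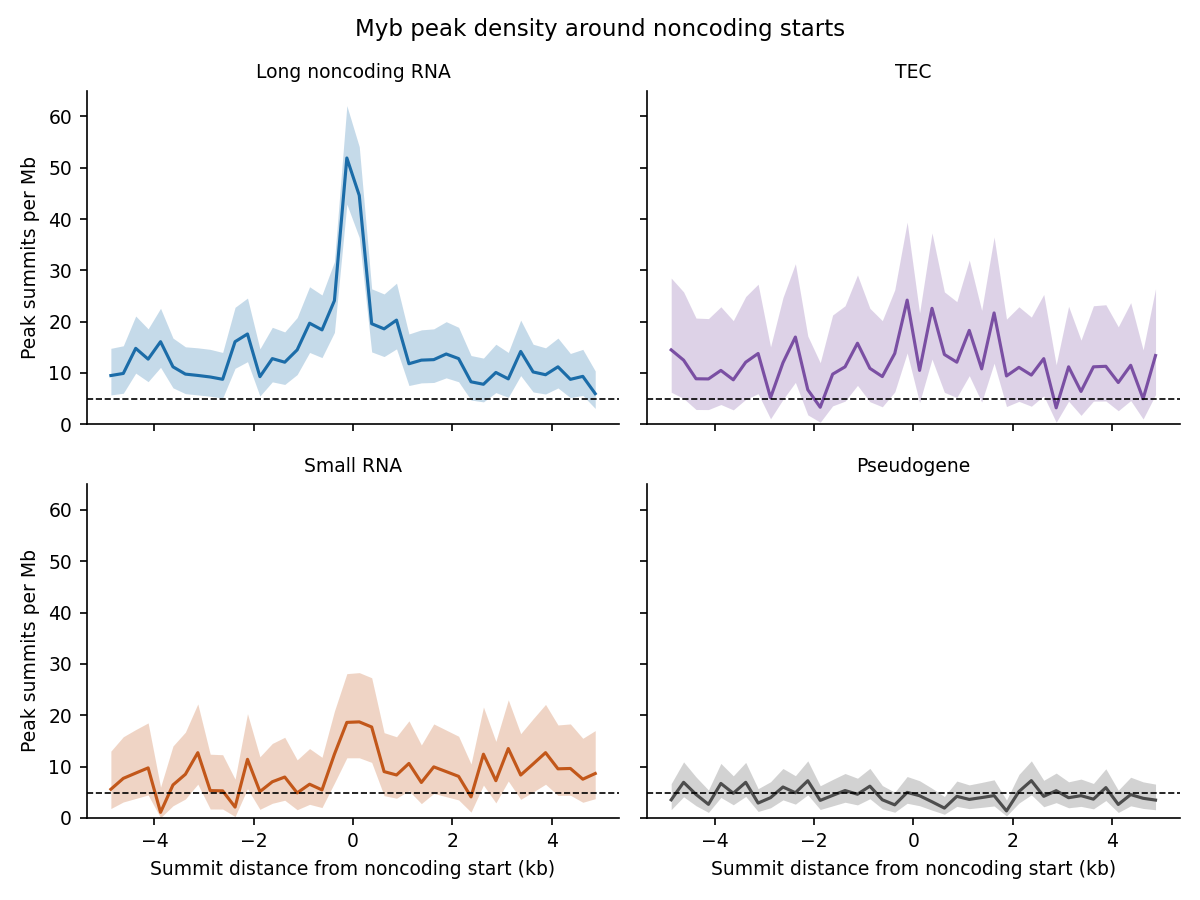
Density of Myb peak summits (per Mb, y axis) against the distance from the nearest noncoding start (kb, x axis, negative upstream) in bins of 250 bp, for 4 classes of noncoding gene. Lines are densities, shaded bands are exact 95% Poisson intervals and the dashed line is the distal density of 4.89 per Mb. The long noncoding RNA curve peaks at 51.9 per Mb just upstream of the start, while the pseudogene curve stays near the dashed line.

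By the nearest start, 846 members (53.0%) belonged to long noncoding RNA genes. These were 520 at lincRNA, 187 at antisense, 116 at processed_transcript and 18 at sense_intronic genes, with the remainder in rarer types. TEC loci took 188 members (11.8%). Small RNA genes took 226 (14.2%), with 67 at miRNA, 64 at snRNA, 47 at snoRNA, 36 at misc_RNA and 8 at rRNA genes. Pseudogenes took 317 (19.9%), of which 250 were processed pseudogenes, and antigen receptor segments took 18. In all, 31 gene types were represented, 18 of them by at least 5 members. A member need not belong to its nearest gene, since 187 members had 2 noncoding genes within 3 kb and 57 had 3 or more.

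Counted by gene, 1456 noncoding genes had a member peak. Genes with at least 1 start more than 3 kb from coding starts, here called isolated, numbered 28630, and 1372 of them (4.79%, 4.55% to 5.05%) had a member. The plot of shares by gene type leaves out types of few genes. Among the types in it, the share was highest for processed_transcript genes, at 18.6% (15.2% to 22.5%). The label is meant for long noncoding RNAs without an open reading frame that fit no other type. It was taken as annotated, and Zswim6, with 4 members, also carries it. The processed_transcript share exceeded the 8.04% of lincRNA genes (7.33% to 8.81%) by 10.6 percentage points (7.23 to 14.4). Antisense genes, at 8.37%, differed from lincRNA genes by 0.327 points, with an interval from -1.14 to 1.93 that includes 0. Misc_RNA genes stood at 8.09% (5.78% to 10.9%) and TEC loci at 5.96%. The snRNA genes stood at 4.75%, miRNA genes at 4.60% and snoRNA genes at 4.35%. For comparison, 8758 of 21938 protein-coding genes (39.9%) had any Myb peak within 3 kb of a start. A gene counts when any of its annotated starts has a peak, so genes with more starts have more bases that can hold one. None of the shares of genes given here was adjusted for the number of starts.

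Pseudogenes with an annotated transcript carried peaks more often than those without. Among processed pseudogenes, which are copies of spliced messenger RNAs, 219 of 9432 (2.32%) had a member, against 19 of 267 transcribed ones (7.12%), a difference of 4.79 points (2.26 to 8.54). Among unprocessed pseudogenes, which are decayed gene duplicates, the shares were 0.590% and 4.98%, a difference of 4.39 points (2.25 to 7.92). The lincRNA share exceeded that of processed pseudogenes by 5.72 points (4.95 to 6.53). The part of mapping quality in the low shares of pseudogenes was not tested.

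**Figure D2:**
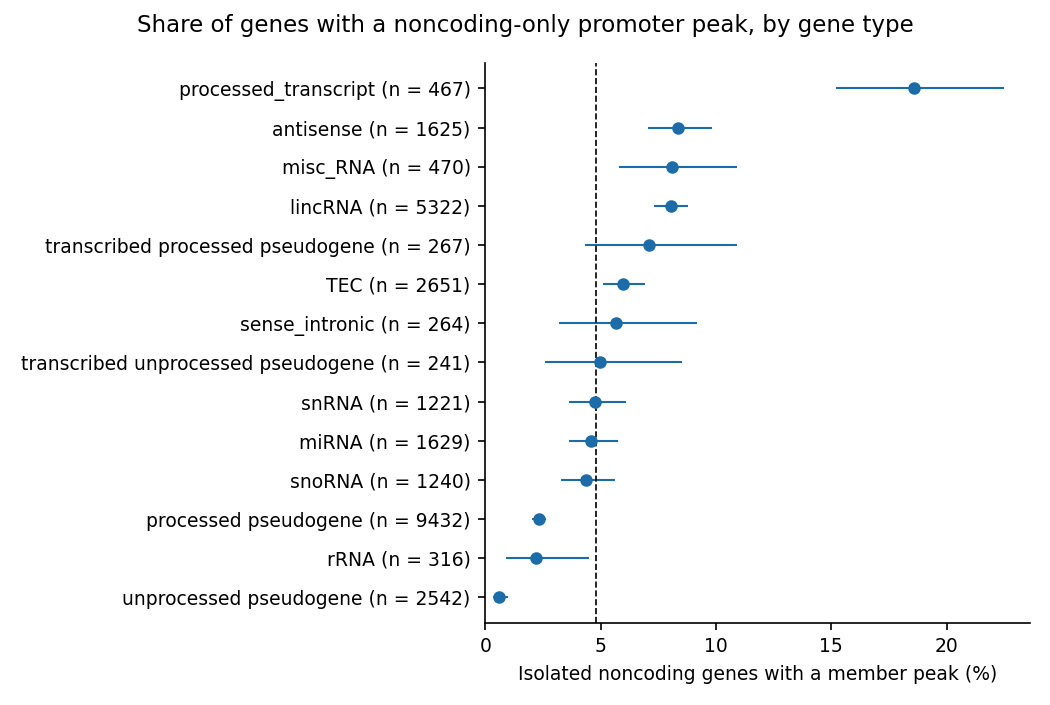
Share of isolated noncoding genes with a member peak (%, x axis) by gene type (y axis, with the number of genes). Points are shares, bars are exact 95% binomial intervals and the dashed line is the share over all types, 4.79%. The processed_transcript genes stand apart at 18.6%, and unprocessed pseudogenes are lowest at 0.590%.

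The fold enrichment of the members was close to that of coding promoter peaks. Fold enrichment is the Myb pileup at the summit over the local IgG background, as the authors computed it. Its median was 4.60 (4.47 to 4.72) in the members, 4.51 at coding-only promoters, 4.66 near both kinds of start and 4.48 in distal peaks. Among gene types the median was 4.79 at lincRNA and 5.01 at snRNA genes. The median summit rested on 18.0 Myb reads (quartiles 14.0 and 25.0, lowest 8, highest 110), and 56.1% of the members had fewer than 20 reads, so members near the median were not ranked against each other. The q-value was at most 0.05 in 1496 members (93.8%), against 92.8% of all peaks, and the -log10 q-value was at least 5 in 698 (43.8%), against 43.1% of all peaks. Both shares are close to the background of the list.

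Fewer members sat directly on a start. The summit was within 500 bp of a start in 494 members (31.0%), against 56.1% of coding-only peaks, a difference of -25.1 points (-27.6 to -22.6). The median distance was 1048 bp, against 370 bp at coding-only promoters. It was shorter at processed_transcript genes (692 bp) and lincRNA genes (842 bp) than at processed pseudogenes (1656 bp). In all, 805 members lay upstream of the start and 788 downstream. Small RNA members were upstream in 42.9% of cases (36.4% to 49.7%) and long noncoding RNA members in 52.4% (48.9% to 55.8%). At the edges of the 3 kb window, the farthest members were AC166779.2 at 3000 bp with 4.67-fold enrichment, Gm32222 at 2999 bp with 6.23 and Gm48632 at 2992 bp with 3.33. Just outside were peaks 3002 bp from Gm15941 (2.35), 3003 bp from 4930519L02Rik (4.50) and 3005 bp from Gm11638 (5.64). At the limit to coding starts, the members of 2900052L18Rik, Gm8493 and Gm38204 were 3001, 3002 and 3004 bp away, with fold enrichments of 6.75, 5.29 and 6.10. Peaks near Gm11699, Gm45223 and Gm30671 missed the limit at 2998, 2996 and 2994 bp, with 5.25, 3.40 and 3.32.

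CpG-rich sequence, typical of the promoters of broadly expressed genes, was rare under the members. A summit was called CpG-rich when the surrounding 500 bp had at least 50% G+C and a CpG observed/expected ratio of at least 0.6. This held for 134 members (8.40%) and for 40.5% of coding-only peaks, a difference of -32.1 points (-33.7 to -30.4). Distal peaks were lower still at 1.62%, a difference of 6.78 points (5.50 to 8.26). Within 500 bp of the start, 20.9% of members and 65.0% of coding-only peaks were CpG-rich. From 1 to 3 kb the shares were 2.30% and 3.74%. Members in that bin differed from distal peaks by 0.686 points (-0.176 to 1.97). Long noncoding RNA members were CpG-rich in 11% of cases and pseudogene members in 4.73%, a difference of 6.26 points (2.75 to 9.20). Repeat-masked bases lay under the summit of 13.7% of members, against 9.01% at coding-only promoters and 13.5% in distal peaks.

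The Myb motif was present within 50 bp of the summit in 273 members (17.1%, 15.3% to 19.1%), against 10.4% in windows 500 bp to either side, a ratio of 1.65. Over all 25793 peaks the same window held the motif in 16.7% of cases. The members' share was above that of coding-only peaks (14.9%) by 2.19 points (0.288 to 4.23) and above that of peaks near both kinds of start (12.2%) by 4.96 points (2.77 to 7.23). It was below that of distal peaks (19.4%) by 2.25 points (0.188 to 4.17). The share also differed by position within the promoter. Within 500 bp of the start 13.8% of members held the motif, and from 1 to 3 kb 19.5% did, a difference of -5.75 points (-9.71 to -1.56). Against coding-only peaks within 500 bp (13%), the difference was 0.766 points (-2.13 to 4.19), an interval that includes 0. From 1 to 3 kb, members differed from coding-only peaks in the same bin (17.9%) by 1.57 points (-1.37 to 4.72). Against distal peaks the difference of these members was 0.151 points (-2.52 to 3.09). Long noncoding RNA members and pseudogene members differed by -0.920 points (-6.04 to 3.69). CpG-rich members held the motif in 11.2% of cases and the others in 17.7%, a difference of -6.47 points (-11.2 to 0.255).

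**Figure D3:**
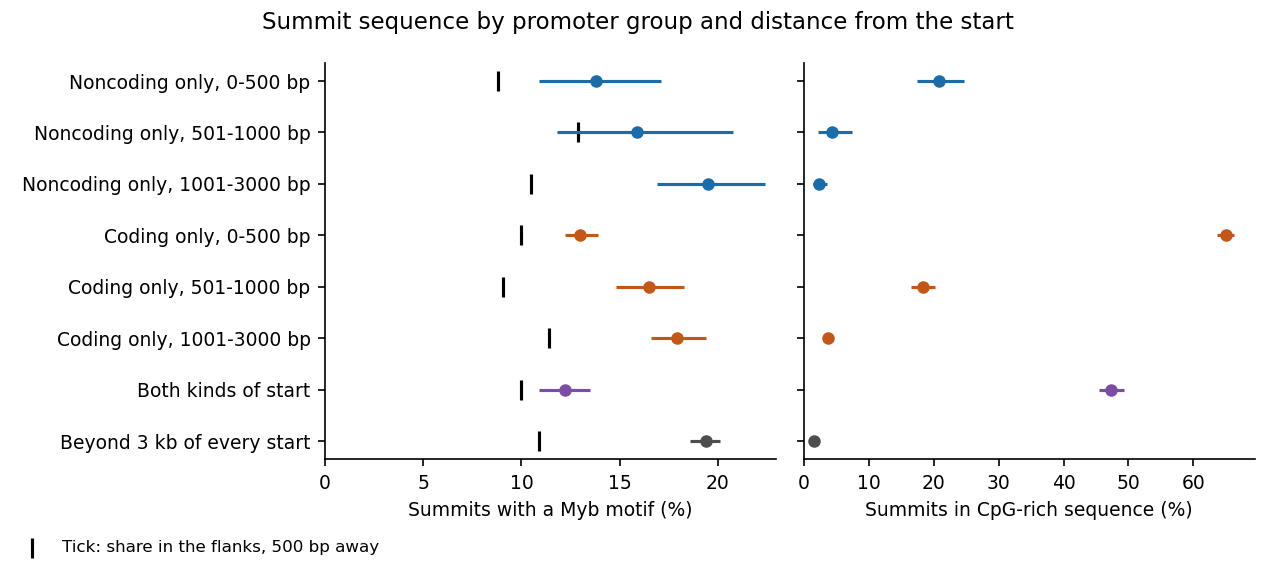
Share of summits with a Myb motif within 50 bp (%, left) and in CpG-rich sequence (%, right) for peaks grouped by kind of start and distance from it (y axis). Points are shares with exact 95% binomial intervals and ticks on the left are shares in windows 500 bp away. The motif share of the members rises from 13.8% to 19.5% with distance, while the CpG-rich share falls from 20.9% to 2.30%.

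Strong members held the motif most often. The split by fold enrichment was chosen after its values were seen. Of 89 members with at least 10-fold enrichment, 32 had the motif (36%, 26.1% to 46.8%), a ratio to their flanks of 3.20. The share was 17.2% among 557 members between 5- and 10-fold and 15.3% among 949 members below 5-fold. The strongest exceeded the weakest by 20.7 points (11.2 to 31.3). Coding-only peaks of at least 10-fold held it in 27.7% of cases, and the difference of 8.29 points had an interval from -1.96 to 19.4. Against distal peaks of that strength (32.2%) the difference was 3.72 points (-6.37 to 14.8). By class, the 89 were 48 long noncoding RNA, 10 TEC, 15 small RNA and 16 pseudogene members, and 4 of them were CpG-rich.

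Motifs of other blood factors were counted in the same windows, in either orientation. The ETS motif (AGGAAGT or CGGAAGT), read by factors such as Spi1, was at 6.96% of members with a ratio to flanks of 2.11. The GATA motif (AGATAA or TGATAA) was at 15.5% with a ratio of 1.70, which was 1.19 within 500 bp of the start and 1.86 from 1 to 3 kb. The RUNX motif (TGTGGT) was at 10.2% with a ratio of 1.31, and the same bins gave 0.886 and 1.54. Both factors are regulators of blood progenitors. The E-box of Tal1 (CAGATG or CAGCTG) was at 17.2% with a ratio of 1.65, compared with 11.2% of coding-only peaks and 17.7% of distal peaks. The CEBP motif (TTGCNNAA or TTACNNAA) had a ratio of 1.35. The SP/KLF box (GGGCGG), a sequence of CpG-rich promoters, was at 4.26% of members and at 7.69% within 500 bp. The NFY box (CCAAT) had a ratio of 0.812. Over all 25793 peaks the ratios were 2.17 for ETS, 1.57 for GATA, 1.41 for RUNX, 1.35 for CEBP and 0.949 for NFY. The GATA and RUNX motifs were at 13.8% and 9.79% of all peaks. The members' values for ETS, GATA, RUNX and CEBP are therefore near the background of the list. The E-box ratio over all peaks was lower, at 1.34, and the SP/KLF box was at 7.15% of all peaks. In summits counted singly, CTCF was found at 5, NRF1 at 3 and IRF at 3. These were 0.313%, 0.188% and 0.188% of members, against 0.264%, 0.178% and 0.198% of all peaks.

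Most members lay outside coding genes. The median distance to the nearest coding start was 17266 bp, with quartiles of 7638 and 41496 bp, and 339 members (21.3%) were more than 50 kb away. Summits were outside coding genes in 68.2% of cases, in a coding intron in 29.5% and in a coding exon in 2.38%. Members at lincRNA genes were outside in 93.1% of cases. Antisense members lay in a coding intron in 62.0% of cases and TEC members in 58.5%. The lincRNA and antisense labels are themselves given by position relative to other genes, so their shares follow in part from the labels. The same shares were not computed for other peaks. The most members lay inside Tex14 (15), Gm20388 (14) and Chd2 (5). Genes with 4 each were B3gnt2, Gm28048, Noct, Ntn4, Pan3, Ptbp3, Spata5, the cell cycle kinase gene Cdk6 and the receptor gene Notch2. A peak inside overlapping genes counts for each of them. B3gnt2 and Gm28048 had the same noncoding genes and the same highest fold enrichment (6.76), so their counts are not separate. Those with 3 included the ETS factor gene Etv6 and the endocytic adaptor gene Picalm. An intronic start of a noncoding gene and an element of the host gene cannot be told apart at such a peak. RefSeq placed an mRNA start within 3 kb of 85 members (5.33%), and of none of the 12 strongest.

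The 12 strongest members had fold enrichments from 17.6 to 28.5 on 55 to 110 reads. A Myb motif was at 7 of them, 5 lay within 500 bp of the start and 1 was CpG-rich. The highest was at the lincRNA gene AC102342.1, with a summit 886 bp upstream of the start, 28.5-fold enrichment, 110 reads and a motif. The next was in an intron of Cdk6, 2333 bp downstream of the start of the antisense gene Gm42435, at chr5:3497068-3499975, with 23.1-fold enrichment and 93 reads. Its Myb sites are the pair printed above. The peak of the antisense gene Gm15555, with its summit in an intron of Samsn1, a signaling adaptor gene of blood cells, at chr16:76001508-76004012, had 19.3-fold enrichment and 74 reads. The peak of Gm34084 had 19.8-fold enrichment and 63 reads, 227538 bp from the nearest coding start, that of the chromatin regulator gene Jarid2. The peak of Vis1 (18.5-fold, 58 reads) was 162281 bp from Zeb2, which encodes a zinc finger repressor.

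Among the others of the 12, Gm6410 was the one peak on a CpG-rich start, 12 bp from it, with 17.8-fold enrichment and 68 reads. The processed pseudogene Gm18485 had 19.1-fold enrichment and 60 reads at 1041 bp. AC117816.1 had 17.6-fold enrichment and 55 reads. Taking the strongest member of each gene type, TEC was led by the peak of Gm38236 in an intron of Cers6 (17.1-fold), processed_transcript by 1810026B05Rik (12.7), sense_intronic by the peak of 4930405O22Rik in an intron of Fbxl17 (11.1) and miRNA by Mir6376 (9.29). The rRNA type was led by Gm23764 (10.1)  and pseudogenes by Psmb7-ps2 (13.5), Gm12260 (8.95), Gm11427 (7.51), 2410024N13Rik (6.21) and Clec7a (4.69). Clec7a encodes the receptor Dectin-1 and carries the label polymorphic_pseudogene in this annotation. Antigen receptor segments were led by Trav7d-3 (9.47) and Ighv1-82 (5.72).

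A few genes of spliceosomal RNAs carried strong peaks beside, but not on, the gene. These RNAs form the core of the spliceosome, and their genes are short and present in many near-identical copies. Of 64 snRNA members, 20 (31.2%, against 31.0% of all members) had a summit within 500 bp of a start. Their median fold enrichment was 7.0 (5.72 to 12.1), against 4.46 (3.90 to 5.09) in the 44 farther away. Of these 20, 6 had at least 10-fold enrichment and 3 held the Myb motif (15%, 3.21% to 37.9%). Of all members within 500 bp, 7.29% had at least 10-fold enrichment and 13.8% held the motif. Among isolated snRNA genes, 22 of 1221 (1.80%) had a member within 500 bp, against 1.78% of all isolated noncoding genes. None of the 20 summits, nor of 8 peaks at genes of U3, a small nucleolar RNA of ribosome assembly, lay inside the gene. Of the snRNA summits 9 were upstream of the start and 11 past the end, and of the U3 summits 4 and 4. The snRNA genes were 89 to 191 bp long and the U3 genes 215 to 216 bp. The authors discarded reads of low mapping quality, which removes reads from near-identical copies, and its part in this pattern was not tested.

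By family, named from the RefSeq product of each gene after the values were seen, U5 and U2 genes had members more often than U6 genes. A product was found for 917 of 1383 snRNA genes (66.3%), below the 80% wanted for a check over all of them, so the shares describe the matched genes only. U5 genes had a member at 5 of 9 (55.6%, 21.2% to 86.3%) and U2 genes at 9 of 28 (32.1%, 15.9% to 52.4%). U6 genes, transcribed by RNA polymerase III and mostly copies, had a member at 20 of 616 (3.25%, 1.99% to 4.97%), of which 2 lay within 500 bp. U1 genes had a member at 4 of 103 (3.88%), U4 at 2 of 10 and U7 at 0 of 41. The strongest were Rnu1a1 (U1, 21.7-fold, 77 reads, 291 bp from the start), Gm25099 (U5, 19.6-fold, 65 reads, 140 bp upstream), Rnu5g (U5, 18.9-fold, 63 reads, 120 bp) and Rnu2-10 (U2, 16.7-fold). All 4 U3 genes matched had a member, with 8 peaks from 4.48- to 16.9-fold, led by Rnu3b3.

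**Figure D4:**
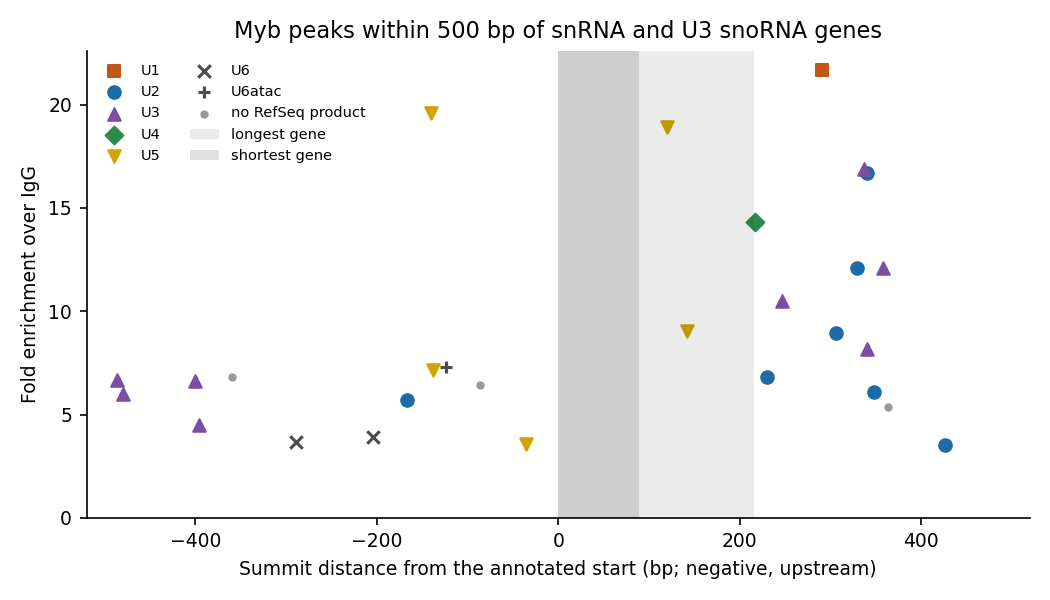
Fold enrichment over IgG (y axis) of the peaks within 500 bp of snRNA genes and of U3 snoRNA genes against the distance of the summit from the annotated start (bp, x axis, negative upstream). Each point is 1 peak, symbols give the RNA family and grey bands span the shortest and the longest gene. Most summits of U2 genes lie past the gene's end, while the U5 summits lie on both sides.

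Many of these peaks came from 1 place. Introns of Tex14 on chromosome 11, from 87422013 to 87472707, held 15 members over 50.7 kb, with fold enrichments from 3.67 to 21.7. The nearest genes were Rnu1a1, the U3 genes Rnu3b1, Rnu3b2, Rnu3b3 and Rnu3b4, the snRNA gene Gm23137 and the processed pseudogene Gm11489. The next largest cluster, on chromosome 7 from 73526245 to 73608804, held 14 members from 2.75- to 12.7-fold at 1810026B05Rik, Gm44734 and C130083A15Rik. The members of C130083A15Rik lay inside the chromatin remodeler gene Chd2. The Malat1 and Neat1 region of chromosome 19 held 9 in 57.8 kb. Clusters were picked after their values were seen. In all, 1117 genes had 1 member, 245 had 2 and 94 had 3 or more, led by 1810026B05Rik with 8 (2.75 to 12.7) and 2310001H17Rik with 7 (3.53 to 16.7).

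Of 48 names in a list of long noncoding RNAs studied in blood cells, 24 had a member peak, 5 had a peak within 3 kb only where a coding start was also within 3 kb, 13 had none and 6 were not matched in the annotation. Over all isolated genes, the share with a member was 8.68% for long noncoding RNA genes. The list names some genes under 2 names (Morrbid, which was not matched, is Gm14005, and Cyrano is Oip5os1), and Mir223, a microRNA gene, is also in the microRNA list. The fold enrichments of the 24 ran from 3.65 to 18.1 around a median of 5.72, each value being that of a gene's strongest member. For genes with several members this is a maximum, so it is not comparable with the median over single peaks. Their summits lay within 500 bp of the start in 20 cases, and 1, that of Pvt1, held a Myb motif (4.17%, 0.105% to 21.1%). Malat1, an abundant nuclear RNA, led with 18.1-fold enrichment and 81 reads 355 bp from its start. It was followed by Mir142hg, the host of miR-142 (10.5, 60 reads), Snhg12 (9.82), Neat1, the scaffold of paraspeckles (8.33, 94 reads), and Jpx (8.28, 14 bp from its start). The Snhg12 peak lay 381 bp from its start and 27 bp from that of Snora16a. The Neat1 peak lay 268 bp from its start and 123 bp from that of Frmd8os. Pvt1 had 7.77-fold enrichment at 1372 bp from its start, 233809 bp from Myc. Among the host genes of small nucleolar RNAs in the list, member peaks were at Snhg12, named above, Snhg15 (7.64), Snhg1 (6.70), Snhg5 (5.12), Snhg8 (4.69), Snhg6 (4.43), Snhg20 (4.42) and Snhg17 (4.05). The Snhg8 peak lay 1584 bp from its start and 1320 bp from that of Snora24.

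Dleu2, the host of miR-15a and miR-16-1, stood at 7.47, Mir17hg, the host of the miR-17 cluster, at 5.72, Lncpint at 5.46 and Ptgs2os2 at 5.25. The Dleu2 peak lay 301 bp from its start and 173 bp from that of Gm27017, and the Mir17hg peak 2689 bp from its start. Mir155hg, the host of miR-155, had 4.0, Kcnq1ot1, an imprinted antisense RNA, 4.33, and Gm14005 (Morrbid), which restrains the death gene Bcl2l11 in myeloid cells, 3.65. Genes with a peak only where a coding start was also within 3 kb were Snhg3 (8.71), Tug1 (7.59), Gas5 (7.43), Mir22hg (6.47) and Ttc39aos1 (3.71). No peak was listed at H19, Meg3, Hotairm1, Trp53cor1, Ptgs2os, Miat, Snhg14, Snhg18, Airn, Tsix, Dnm3os, Gm26917 or Firre.

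Of 8 names in a list of genes transcribed by RNA polymerase III or making structural RNAs, Rn7sl1 was not matched in the annotation. A member was at 5 of the 8, all within 500 bp of the start. These were Rny3 (8.84, the only one with a motif) and Rny1 (7.97), which make Y RNAs, Vaultrc5 (5.56), which makes a vault RNA, Rn7sk (4.87, a peak with a start of C920006O11Rik nearer to it), whose RNA holds the elongation factor P-TEFb inactive, and Terc (3.99), the RNA template of telomerase, which RNA polymerase II makes. Rmrp (6.51) and Rpph1 (4.44), the RNAs of RNase MRP and RNase P, had peaks within 3 kb of both their own and a coding start. The Rmrp peak lay 1953 bp from its start and 1795 bp from that of Ccdc107. Over all isolated noncoding genes, 4.79% had a member.

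Of 30 microRNA genes studied in blood, 5 had a member, against 4.60% of all isolated miRNA genes. Another 4 had a peak only where a coding start was also within 3 kb, 20 had none and 1 was not matched. These counts use the annotated starts of the microRNA genes themselves, not those of host transcripts. Mir155 is among the 20, although its host gene Mir155hg had a member 22 bp from the host start. Mature sequences of the genes with a member, from RefSeq on GRCm38.p6, are given with the seed (bases 2 to 8) in capitals. They show that these genes make microRNAs of different seeds.
mmu-miR-223-3p: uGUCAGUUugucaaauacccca
mmu-miR-142a-3p: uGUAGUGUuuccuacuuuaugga
mmu-miR-142a-5p: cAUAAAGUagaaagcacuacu
mmu-miR-23a-3p: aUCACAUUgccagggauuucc
mmu-miR-27a-3p: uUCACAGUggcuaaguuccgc
mmu-miR-24-3p: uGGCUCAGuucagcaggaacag

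Mir223, a myeloid microRNA gene, had a peak 174 bp from its annotated start, at chrX:96242503-96243075, with 5.72-fold enrichment on 17 reads. The antisense gene F630028O10Rik had a stronger peak in the same region, at chrX:96239187-96240950. That peak had 10.6-fold enrichment on 40 reads and held the motif, but its summit was not within 3 kb of the Mir223 start. Mir142, a pan-hematopoietic microRNA gene, shared the peak of Mir142hg, 1233 bp from its own start and 54 bp from that of the host gene. Mir23a, Mir27a and Mir24-2, which form a cluster, shared 1 peak of 8.05-fold enrichment on 51 reads at 412, 566 and 709 bp, so the 5 genes stand for 3 peaks. None of the 3 held the motif. The 4 with a coding start also within 3 kb were Mir150 (7.94), Mir146b (5.75), Mir10a (5.67) and Mir196b (5.49).

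**Figure D5:**
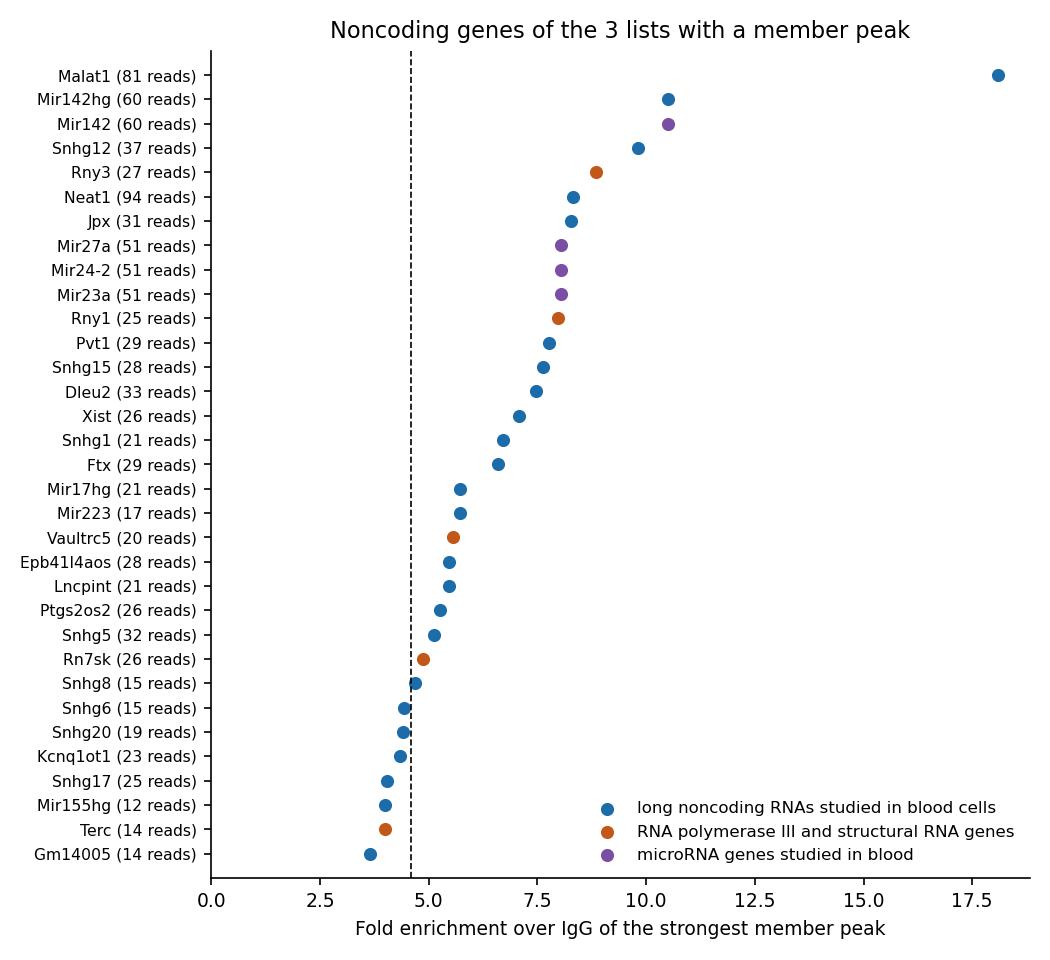
Fold enrichment over IgG (x axis) of the strongest member peak of each gene of the 3 lists that had one (y axis, with Myb reads at the summit). Colors mark the list and the dashed line is the median of all members, 4.60. Malat1 stands apart at 18.1, and Gm14005 is lowest at 3.65.

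Members wider than 2 kb numbered 53 (3.32%), above the 1.37% of distal peaks by 1.95 points (1.14 to 2.97) and differing from the 4.33% of coding-only peaks by -1.0 points (-1.88 to 0.0603). The median width was 562 bp in the members and 621 bp at coding-only promoters. Of the 53, 25 were within 500 bp of a start and 32 were at long noncoding RNA genes, and the widest were at Malat1 (11645 bp), Mir142hg (7615 bp) and Gm45508 (7223 bp).

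The share of noncoding genes with a member differed among chromosomes. On autosomes it ran from 3.33% to 10.9%, with a median of 4.91% and the highest value on chromosome 11. On chromosome X it was 1.72% (27 of 1574, 1.13% to 2.49%), below every autosome, and no member lay on Y. Of all 25793 peaks, only 376 lay on X and 3 on Y. The part of mapping quality in the low counts on Y was not tested. Members made up 7.98% of the X peaks, against 6.18% of all peaks, so X had no lower share of members among its peaks. The X members included genes of the X inactivation center, with Jpx at 8.28, Xist at 7.07, 4.10 and 3.34 and Ftx with 5 peaks from 3.90 to 6.60, whereas Tsix had none. Also on X, F630028O10Rik had 10.6-fold enrichment with a motif, 148 bp from its start. At the immunoglobulin loci 7 of 14 joining segments had a member, but these were counts of genes that share peaks, such as that of Ighj4 with 7.18-fold enrichment and 36 reads.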

How the data were processed

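Myb and IgG precipitates of WT Lin- bone marrow cells were sequenced as 1 library each. Only the peak list of the Myb library was used, and groups were taken from the sample titles. Per the submitters' processing notes the authors used cutadapt 1.15, BWA 0.7.13, Picard and MACS2 2.1.1.20160309 on mm10. Reads with a mapping quality below 30 and reads in blacklisted regions were dropped, and peaks were kept by overlap between pseudo-replicates, which are subsets of 1 library. The deposited list gives, for each peak, fold enrichment (a ratio of Myb pileup to local IgG background, by MACS2), the -log10 p-value and -log10 q-value, a score (not used) and the offset of the summit. In the deposited list some peaks have a q-value above 0.05.

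Summits were compared with GENCODE vM21 starts on GRCm38, and coordinates are 1-based. Bases that satisfy each rule were counted on a grid of 10 bp. Reads were recovered from fold enrichment and -log10 p-value at a pileup scale of 0.769, which gave whole reads within 0.01 in 100% of peaks, with more than 1 candidate in 4.66%. Motifs were counted within 50 bp of the summit and in windows 500 bp to either side. Intervals are at 95%: Clopper-Pearson for shares, Newcombe for differences, exact Poisson for reads and densities, and order statistics for medians. No test was possible with 1 library per group.

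The genes named are the 12 members of highest fold enrichment, the strongest member of each gene type with at least 5, those just inside and outside each 3 kb limit, and 3 gene lists. Members and lists were chosen with earlier results of these data known. Families of snRNA, hosts, clusters, chromosome X genes and the 10-fold split were chosen after their values were seen. Alternatives changed the q-value limit, the distances, the gene types, the motif, its window and the CpG limits. Scripts used Python 3.11.15, numpy 2.4.6, pandas 2.3.3, scipy 1.17.1 and matplotlib 3.10.9 and were tested on simulated data.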

Additional observations from a re-analysis of the deposited data

How the results depend on the processing

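Of 120 values under alternatives, 59 stayed within the interval of the reported value or within 1.5 times its count and 61 moved. The 61 include the median -log10 q-value, which is on its own scale and was set as moved without this comparison. These are levels of the members, and no difference between groups was recomputed. The cause of a move was not tested except where the setting itself removes peaks, bases or genes. The values below are the number of members, their share of all peaks (%), density per Mb, isolated genes with a member (%), median fold enrichment, median width (bp), motif share (%), motif ratio to flanks, CpG-rich share (%) and share within 500 bp (%).

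A minimum -log10 q-value of 2 gave density 8.32, genes 4.35%, fold enrichment 4.94 and width 610 bp. At 5, 698 members remained, with density 4.26, genes 2.58%, fold enrichment 6.34, width 818 bp, motif 20.2%, ratio 2.04, CpG-rich 10.7% and 35.5% within 500 bp. With a q-value of at most 0.05, density was 9.12 and fold enrichment 4.75. Noncoding starts within 1 kb gave 770 members, a share of 2.99%, density 13.3, genes 2.60%, fold enrichment 4.75, width 592 bp, motif 14.5%, ratio 1.42, CpG-rich 14.9% and 64.2% within 500 bp. Within 500 bp they gave 494 members, 1.92%, density 16.7, genes 1.78%, fold enrichment 4.87, width 636 bp, motif 13.8% and CpG-rich 20.9%. A coding limit of 10 kb gave a share of 4.14%, density 7.83, genes 3.99% and fold enrichment 4.75, and a limit of 1 kb gave 8.60%, density 12.3, genes 5.34% and 26.6% within 500 bp. Without pseudogenes and segments the share was 4.93%, density 14.1, genes 6.95% and 34.8% within 500 bp. With the long noncoding classes alone, without TEC, 893 members remained, a share of 3.46%, density 17.8, genes 8.68%, width 591 bp, CpG-rich 11% and 36.2% within 500 bp. RefSeq mRNA starts counted as coding, chosen after seeing the data, gave a share of 5.85%. Counting any base of the peak moved none of the values recomputed under it, which did not include density.

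Strength as the -log10 q-value had a median of 4.45, on its own scale. The looser motif AACNG gave a share of 55.7% and a ratio of 1.30, and CAACNG or TAACNG a share of 30.5%. A window of 25 bp gave 9.28% and 1.89, and one of 100 bp gave 31.1%. Stricter CpG limits gave 6.14%.

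No paired analysis was possible because there was 1 library per group, and no replicate was left out for the same reason. Depth limits single peaks, since 56.1% of members rest on fewer than 20 reads.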
